A study of Mus musculus with 6 samples.

Results

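The genes described here are 39 genes of DNA replication and S phase, the part of the cell cycle in which the genome is copied. They were found by symbol in a table of estimated read counts for 18478 genes in group 2 innate lymphoid cells (ILC2s) sorted from mouse lung, tissue-resident lymphocytes that answer alarm cytokines with type 2 cytokines. All 39 symbols were matched, and all 39 genes were among the 14084 that passed the filter on low counts. The rule that names them uses no measured value, but the members were chosen with earlier results of these data known. CB2 KO is a knockout of cannabinoid receptor 2, a receptor on immune cells that couples to G proteins and is the product of Cnr2, and was compared with WT. There were 3 libraries of each genotype. Both genotypes were BALB/c mice, 6 weeks old, that had received 3 intranasal doses of 1 µg recombinant mouse IL-33, an alarm cytokine that makes ILC2s proliferate. After isolation the cells of both groups spent 24 h in recombinant IL-2 and IL-7, 10 ng/mL of either, so the RNA is that of primed, cytokine-cultured ILC2s. The allele behind the knockout, the sort gate and whether a library came from 1 mouse or a pool are not given in the sources used here. Each p-value thus reflects spread among these libraries alone, and that spread may be technical.

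Library totals were 17141698 to 21103769 estimated counts in CB2 KO and 17850840 to 21621008 in WT. Values below are in CPM, the usual depth-scaled count, here with TMM-corrected library sizes. Cnr2 itself had 9.24, 1.60 and 3.84 CPM in CB2 KO replicates 1 to 3, against 9.32, 17.4 and 15.8 CPM in WT replicates 1 to 3 (log2 fold change −1.52, SE 0.56, edgeR adjusted p = 0.514). The library labelled CB2 KO replicate 1 was thus close to the lowest WT library, which makes the count table a weak check of its label, and which part of the gene was deleted is not stated in the labels. The same library stood alone on the first principal component, which held 37.6% of the variance of all tested genes. WT replicate 1 stood alone on the second, which held 21.4%. The 9 defining ILC2 markers were present in every library. Gata3, the master transcription factor of type 2 lymphocytes, had 932 to 987 CPM in CB2 KO and 994 to 1095 CPM in WT. Summed levels of 8 mast cell and basophil markers, 7 of them matched, were 41.4 to 86.9 CPM in CB2 KO and 17.5 to 28.3 CPM in WT. For 8 macrophage and monocyte markers, 6 of them matched, the sums were 150 to 170 CPM in CB2 KO and 12.1 to 59.2 CPM in WT. Most of the CB2 KO sum was Chil3, with 143, 108 and 135 CPM in CB2 KO, against 0.559, 8.68 and 47.5 CPM in WT. Of the 4 tested markers, Chil3 and Lyz2 were higher in CB2 KO without overlap, while Cd68 and Csf1r overlapped. The summed T cell markers were at 147 to 159 CPM in CB2 KO and at 149 to 160 CPM in WT, most of it Trbc2 (119 ± 9 CPM in CB2 KO and 135 ± 6 CPM in WT, SD, n = 3 each). Cd3g, a chain of the T cell receptor complex, had 25.6, 28.9 and 23.9 CPM in CB2 KO, against 9.60, 17.2 and 15.1 CPM in WT, without overlap (log2 fold change 0.92, SE 0.29, edgeR adjusted p = 0.452). Over the 5 tested T cell markers, 3 log2 fold changes were positive and 2 negative, with a median of 0.92. A list of 12 stress and RNA quality genes had 12 positive log2 fold changes (median 0.33). It summed to 4396 to 5967 CPM in CB2 KO and 4031 to 4246 CPM in WT. In edgeR 0 passed the threshold and 5 were higher at an unadjusted p under 0.05, while DESeq2 called 1, Neat1. Groups did not overlap for 4 of the 12, all higher in CB2 KO. Over all tested genes, 50.0% of log2 fold changes were negative and 6.91% of genes were higher without overlap. Of all tested genes, 4.33% were higher at an unadjusted edgeR p under 0.05, and DESeq2 called 1.19% higher. Of the 16 ILC2 markers, 13 had negative log2 fold changes. Groups did not overlap for 8 that were lower and for 1, the cytokine gene Il5, that was higher in CB2 KO, where 7.2% of all tested genes were lower and 6.91% higher without overlap. Il5 averaged 9021 ± 1070 CPM in CB2 KO and 7343 ± 469.6 CPM in WT (SD, n = 3 each; edgeR adjusted p = 0.446). The part of these differences in the values below was not tested.

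Before S phase, origins of replication are licensed when ORC, Cdc6 and Cdt1 load the ring of Mcm2 to Mcm7 onto DNA. Cdc45 and the GINS complex then join the ring to form the active helicase, and polymerases, the Pcna clamp and flap-processing enzymes copy both strands while ribonucleotide reductase and thymidylate synthase supply deoxynucleotides. Most of these genes are transcribed under E2F factors as cells pass from G1 into S phase, so in a mixed population their RNA is widely used as a sign of proliferation. ILC2s expand after IL-33 in the lung, and IL-2 and IL-7 sustain them in culture.

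The replication genes had slightly lower RNA levels in CB2 KO as a set of values, without any single gene past the threshold. Their CPM summed to 7539, 7604 and 7815 in CB2 KO replicates 1 to 3, against 8357, 8676 and 8881 in WT replicates 1 to 3. Each CB2 KO library was below each WT library, and the mean sum was 11.4% lower in CB2 KO (7652 ± 144 CPM in CB2 KO and 8638 ± 264 CPM in WT, SD, n = 3 each). Before any scaling, the members took 0.763% to 0.784% of the counts of a CB2 KO library and 0.830% to 0.879% of those of a WT library. In such bulk samples, fewer cells in S phase and less of each RNA per cell cannot be told apart.

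By gene, the quasi-likelihood test of edgeR, with Benjamini-Hochberg adjustment over all tested genes, called 0 of 39 members at an adjusted p under 0.05. Over the whole table it called 15 genes, 0.107% of those tested, of which 0.0639% were lower and 0.0426% higher in CB2 KO. At an unadjusted p under 0.05, 8 members were lower in CB2 KO and 0 were higher, against 4.27% lower and 4.33% higher among all tested genes. DESeq2 called 3 members, all lower, in a table in which it called 1.39% of genes lower and 1.19% higher. Of the log2 fold changes, 29 were negative and 10 positive, where 50.0% of all tested genes were negative. Their median was −0.19, against −0.00030 over all tested genes and −0.01 over the 6412 genes with a mean of at least 30 CPM. In 9 members, Slbp, Rrm2, E2f8, Dtl, Mcm5, Gmnn, Pold3, Blm and Uhrf1, all 3 CB2 KO libraries lay below all 3 WT libraries, and in 0 members did they lie above. This is 23.1% of the members, while 7.2% of all tested genes were lower without overlap and 6.91% higher. Members share the same 6 libraries and are not independent of each other. Leaving out CB2 KO replicate 1 gave 28 negative members with a median of −0.17 and 0 calls, so the shift was about as large without that library. Leaving out WT replicate 1 gave 33 negative members with a median of −0.14, and the summed level was then 12.8% lower in CB2 KO.

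**Figure D1:**
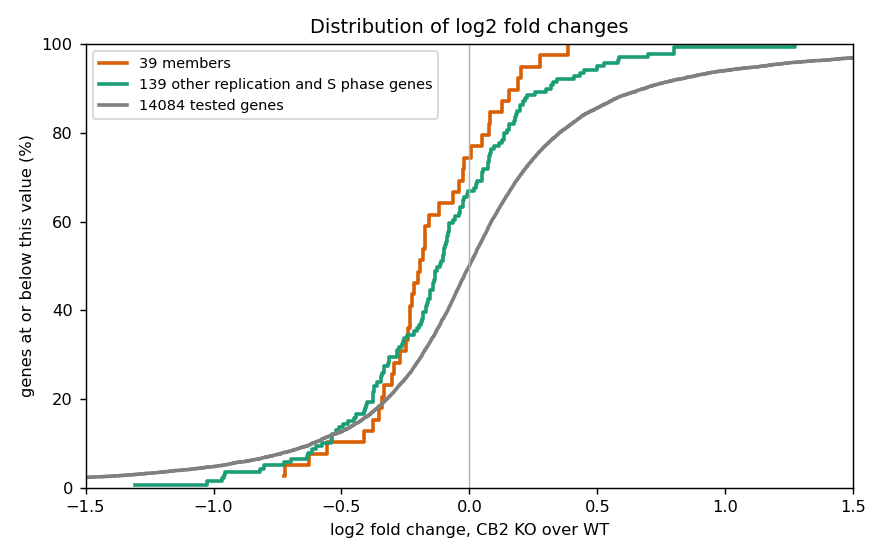
Cumulative distribution of log2 fold changes, CB2 KO over WT: the x axis is the log2 fold change and the y axis the percentage of genes at or below it, for the 39 members, 139 other replication and S phase genes and all 14084 tested genes. The curve of the members lies to the left of that of all genes above a log2 fold change of about −0.3, with 74.4% of members below 0, and has no member beyond −0.73.

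**Figure D2:**
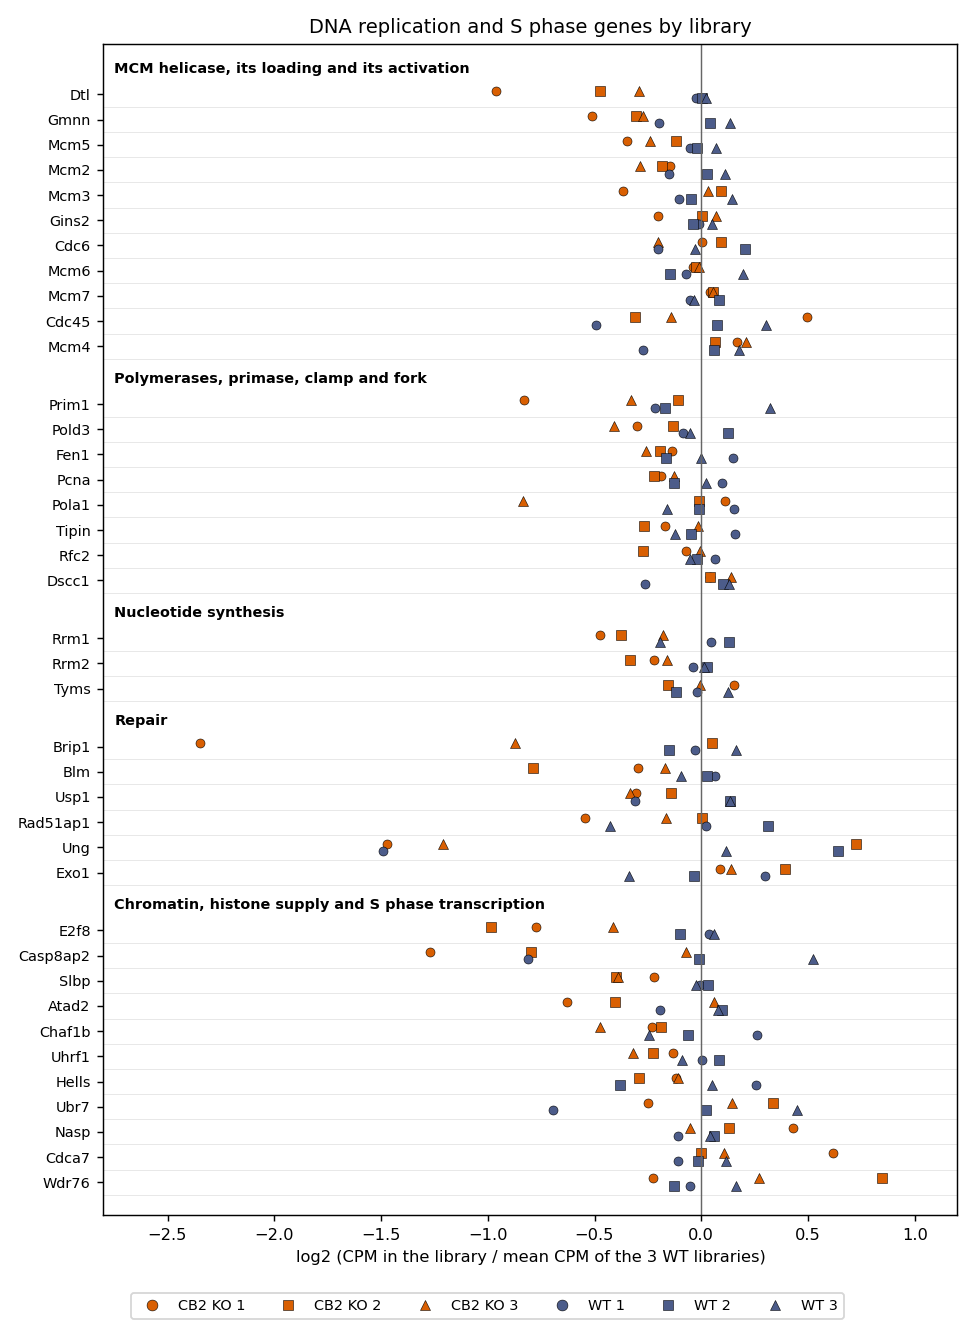
Every member in every library: the x axis is the log2 ratio of the library's CPM to the mean CPM of the WT libraries, rows are genes ordered within each role by fold change, CB2 KO points sit above WT points and marker shapes give the replicate number. E2f8, Dtl, Slbp and Rrm2 show CB2 KO points wholly left of the WT points, while most rows overlap and Brip1, Ung and Casp8ap2 spread widely.

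RefSeq promoter windows (build GRCm38.p6, 250 bases before to 50 after each start) were matched for 30 of the 39 members. They were searched on both strands for the E2F core motif, which was taken in 4 spellings. The spelling TTCCCGC was searched for, together with the spelling TTGGCGC and with the closely related spelling TTCGCGC, and likewise the fourth spelling, which reads TTGCCGC; matches may overlap on opposite strands. A gene with more than 1 start has a window for each, and a gene was counted when any of its windows held a match. At least 1 match was present for 22 of 30 members (73.3%), against 2936 of 27025 genes with a window (10.9%) and 1863 of 9343 tested genes with a window (19.9%). A CCAAT box (the letters CCAAT) was present in 21 of 30 (70.0%), against 41.1% of all genes with a window and 43.6% of tested ones. The CHR element TTTGAA, a motif linked to G2 and M phase genes, was present in 6 of 30, against 20.2% of all and 14.7% of tested genes. Among the 9 members whose groups did not overlap, 8 had a window and 7 of those held an E2F core; among the 30 whose groups overlapped, 22 had a window and 15 held one. Members with and without an E2F core were thus found on both sides. The windows of 6 members are shown in full below, each 5′ to 3′ along the gene's own strand, with E2F core matches in capitals: the 3 members with the smallest p (E2f8, Rrm2 and Slbp), Dtl, and an MCM subunit lower without overlap (Mcm5) beside one whose groups overlapped (Mcm6). They lie at chr7:48881547-48881846 on the minus strand (E2f8), chr1:191575495-191575794 on the minus strand (Dtl), chr12:24708004-24708303 on the plus strand (Rrm2), chr8:75109259-75109558 on the plus strand (Mcm5), chr1:128359656-128359955 on the minus strand (Mcm6) and chr5:33652525-33652824 on the minus strand (Slbp).
E2f8: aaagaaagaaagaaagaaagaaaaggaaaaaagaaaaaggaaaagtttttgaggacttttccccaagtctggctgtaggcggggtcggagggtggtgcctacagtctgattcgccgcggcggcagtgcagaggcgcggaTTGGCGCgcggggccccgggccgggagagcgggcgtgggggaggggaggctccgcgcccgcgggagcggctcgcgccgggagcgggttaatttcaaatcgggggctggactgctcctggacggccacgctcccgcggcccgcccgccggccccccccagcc
Dtl: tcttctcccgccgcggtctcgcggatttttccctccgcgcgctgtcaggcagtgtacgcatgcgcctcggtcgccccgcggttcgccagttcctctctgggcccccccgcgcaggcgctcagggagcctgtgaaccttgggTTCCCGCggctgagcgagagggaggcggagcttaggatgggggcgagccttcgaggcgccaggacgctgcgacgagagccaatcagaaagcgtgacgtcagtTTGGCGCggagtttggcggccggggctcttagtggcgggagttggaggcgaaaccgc
Rrm2: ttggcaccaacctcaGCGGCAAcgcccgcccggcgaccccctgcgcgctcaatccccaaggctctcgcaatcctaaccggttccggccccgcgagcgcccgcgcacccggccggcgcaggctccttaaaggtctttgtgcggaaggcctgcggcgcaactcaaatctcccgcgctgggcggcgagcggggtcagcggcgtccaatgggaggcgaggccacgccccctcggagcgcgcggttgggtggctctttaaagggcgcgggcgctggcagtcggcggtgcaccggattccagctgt
Mcm5: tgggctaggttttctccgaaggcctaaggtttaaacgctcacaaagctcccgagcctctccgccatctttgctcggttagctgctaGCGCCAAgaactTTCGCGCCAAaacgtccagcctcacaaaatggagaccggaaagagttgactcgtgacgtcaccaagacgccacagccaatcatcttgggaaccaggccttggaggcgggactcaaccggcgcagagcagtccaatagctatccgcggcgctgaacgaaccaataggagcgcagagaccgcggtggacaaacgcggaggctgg
Mcm6: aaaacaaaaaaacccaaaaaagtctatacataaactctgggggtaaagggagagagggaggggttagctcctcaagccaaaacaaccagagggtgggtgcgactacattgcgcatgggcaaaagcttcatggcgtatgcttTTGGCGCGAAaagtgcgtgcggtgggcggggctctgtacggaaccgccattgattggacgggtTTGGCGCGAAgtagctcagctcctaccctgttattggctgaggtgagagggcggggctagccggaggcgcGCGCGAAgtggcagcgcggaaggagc
Slbp: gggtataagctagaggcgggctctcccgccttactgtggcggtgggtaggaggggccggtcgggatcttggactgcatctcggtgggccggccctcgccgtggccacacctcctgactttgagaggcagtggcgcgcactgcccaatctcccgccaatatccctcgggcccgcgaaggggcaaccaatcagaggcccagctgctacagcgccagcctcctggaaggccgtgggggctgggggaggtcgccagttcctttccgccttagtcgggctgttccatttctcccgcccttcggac
E2f8 and Rrm2 each held 1 match, Dtl 2, Mcm5 3 and Mcm6 5, several of them overlapping on opposite strands, and the Slbp window held 0. Mcm6, with the most matches of the 6, had a log2 fold change of −0.02, and Slbp, with 0, one of −0.33. Most of these 6 genes were picked by p or by overlap. They therefore cannot show how matches relate to the difference between genotypes, which was not tested. A match describes letters in a window and is no measurement of binding.

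The MCM helicase was at a similar level in both genotypes when its 6 subunits were summed, and Mcm5 alone had groups without overlap. Their CPM summed to 2236, 2402 and 2362 in CB2 KO replicates 1 to 3 and to 2264, 2408 and 2665 in WT replicates 1 to 3, so the groups overlapped and the mean was 4.58% lower in CB2 KO. Mcm5 had 371, 435 and 401 CPM in CB2 KO, against 456, 466 and 496 CPM in WT. Its groups did not overlap, and its log2 fold change of −0.23 (SE 0.08) had an unadjusted p of 0.0202 and an edgeR adjusted p of 0.470. Mcm2 had 381, 372 and 346 CPM in CB2 KO, against 379.9, 430.2 and 456 CPM in WT. WT replicate 1 lay within the range of CB2 KO, and the log2 fold change was −0.20 (SE 0.09, edgeR adjusted p = 0.586).

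The other 4 subunits differed by less than their spread. Mcm4 had 368, 342 and 378 CPM in CB2 KO, against 270.5, 341 and 370.0 CPM in WT, where replicate 1 was low. Mcm7 had 243, 245 and 245 CPM in CB2 KO, against 227, 250.2 and 231 CPM in WT. Their log2 fold changes were positive, 0.15 (SE 0.12) for Mcm4 and 0.05 (SE 0.08) for Mcm7. Mcm3 had 343, 472 and 453 CPM in CB2 KO, against 412, 428 and 489 CPM in WT. Mcm6 had 529, 536 and 539.5 CPM in CB2 KO, against 518, 492 and 623 CPM in WT. The log2 fold change was −0.07 (SE 0.13) for Mcm3, where CB2 KO replicate 1 was the lowest library and its removal turned the sign (0.07). It was −0.02 (SE 0.09) for Mcm6, and 0.00195 with library size alone in place of TMM scaling.

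Since the 6 subunits act in 1 ring, their levels were also set against each other per kb of exon. Mcm5 made up 18.2%, 19.7% and 18.3% of the summed MCM level per kb in CB2 KO, against 22.1%, 21.2% and 20.4% in WT, so the groups did not overlap (means 18.7% ± 0.8 in CB2 KO and 21.3% ± 0.9 in WT, SD, n = 3 each). Mcm4 made up 20.1%, 17.2% and 19.3% in CB2 KO, against 14.6%, 17.3% and 16.9% in WT, with overlap. The shares of the other 4 overlapped as well. Shares are free of library scaling, and with 6 shares that must sum to a whole a lower one is matched by higher ones; they got no test. Exon length was the union over all annotated transcripts, 6.956 kb for Mcm2, 4.426 kb for Mcm7 and 3.589 kb for Mcm4. Per kb of that length, Mcm2 and Mcm7 had 52.7 and 55.2 CPM in CB2 KO and 60.7 and 53.3 CPM in WT. The other 4 had 100.8 to 115 CPM per kb in CB2 KO and 91.2 to 118 CPM per kb in WT. Before the division, Mcm2 averaged 366 CPM in CB2 KO and 422 CPM in WT, and Mcm4 363 and 327 CPM. The low Mcm2 value per kb thus depends on the length used. Whether the subunits differ in transcript level was not tested.

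**Figure D3:**
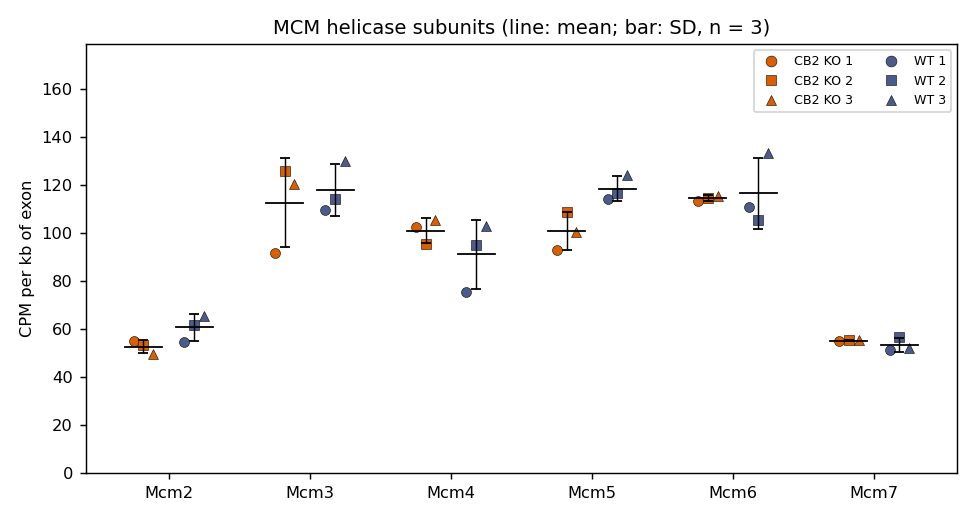
Levels of the MCM subunits in CPM per kb of exon (y axis) by gene (x axis), CB2 KO left of WT for each gene; points are libraries, lines means and bars SD (n = 3). Mcm5 is the subunit whose CB2 KO points all lie below its WT points; the other 5 overlap.

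The genes that load, restrain and activate the helicase had summed levels of 463, 474.6 and 470.2 CPM in CB2 KO, against 475.2, 561 and 561 CPM in WT. The mean was 11.9% lower in CB2 KO, and WT replicate 1 was almost level with CB2 KO. Dtl, the receptor of a ubiquitin ligase that destroys Cdt1 once replication has begun, had 65.0, 91.0 and 103 CPM in CB2 KO, against 124, 127 and 129 CPM in WT. All CB2 KO libraries lay below the tight WT group, with a log2 fold change of −0.56 (SE 0.17, unadjusted p = 0.0126, edgeR adjusted p = 0.451). Without CB2 KO replicate 1, its lowest library, the fold change was −0.38. Gmnn, which encodes geminin, the inhibitor of Cdt1, had 66.5, 76.7 and 78.5 CPM in CB2 KO, against 82.7, 97.6 and 104 CPM in WT. The groups did not overlap, and the log2 fold change was −0.36 (SE 0.15, unadjusted p = 0.0450, edgeR adjusted p = 0.578). Dtl and Gmnn were therefore among the 9 without overlap.

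The loader and the helicase cofactors did not share this pattern. Cdc6, the ATPase that helps load the ring, had 154, 164 and 133 CPM in CB2 KO, against 133, 177 and 150.2 CPM in WT. Cdc45 had 108, 61.7 and 69.3 CPM in CB2 KO, against 54.3, 80.5 and 94.4 CPM in WT. Gins2, a GINS subunit, had 70.6, 81.7 and 85.4 CPM in CB2 KO, against 80.6, 79.3 and 84.1 CPM in WT. All 3 groups of values overlapped, with log2 fold changes of −0.02 (SE 0.14) for Cdc6, 0.08 (SE 0.28) for Cdc45 and −0.04 (SE 0.13) for Gins2. The Cdc6 value was 0.000907 with library size alone, and the Cdc45 value was −0.21 without CB2 KO replicate 1, its highest library. Exons of Gins2 share 67.3% of their length with Gse1 on the opposite strand, and without a known strand setting its reads cannot be told from those of Gse1.

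The polymerase, primase, clamp and fork genes summed to 1093, 1085 and 1079.5 CPM in CB2 KO, against 1301, 1179 and 1232 CPM in WT. Every CB2 KO library was lower, by 12.2% in the means, and 7 of the 8 log2 fold changes were negative, none past the threshold. Pold3, an accessory subunit of polymerase delta, was the only gene of the 8 without overlap, with 102, 114 and 94.3 CPM in CB2 KO, against 118, 137 and 121 CPM in WT (log2 fold change −0.27, SE 0.13, edgeR adjusted p = 0.613).

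Pcna, the sliding clamp that tethers the polymerases, had 224, 219.7 and 235 CPM in CB2 KO, against 274, 234 and 260.1 CPM in WT. The lowest WT library was just inside the CB2 KO range, and the log2 fold change was −0.18 (SE 0.09, edgeR adjusted p = 0.632). A processed pseudogene, Pcna-ps2, is 99.2% identical to Pcna over 781 aligned bases and took 98.0 CPM in CB2 KO and 111 CPM in WT, so the estimated counts of the 2 are uncertain. Summed with its copy, Pcna had 323, 317 and 333 CPM in CB2 KO, against 395, 336 and 369 CPM in WT, and these did not overlap. Fen1, the flap endonuclease that trims Okazaki fragments, had 257, 247 and 236 CPM in CB2 KO, against 313, 252 and 282 CPM in WT, with overlap through WT replicate 2 (log2 fold change −0.19, SE 0.10, edgeR adjusted p = 0.642). Of its exon length, 78.8% is shared with the antisense gene Gm10143, which limits what its level says. Prim1, the catalytic subunit of primase, had 54.2, 89.4 and 76.9 CPM in CB2 KO, against 83.1, 85.8 and 121 CPM in WT, and its log2 fold change of −0.38 had an SE of 0.23.

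The remaining fork genes differed less than their spread. Pola1, the catalytic subunit of polymerase alpha, averaged 78.3 ± 24.8 CPM in CB2 KO and 89.2 ± 9.7 CPM in WT. Its lowest library was CB2 KO replicate 3, without which the log2 fold change was 0.04 in place of −0.17. Rfc2, a subunit of the clamp loader, averaged 166 ± 16 CPM in CB2 KO and 179 ± 8 CPM in WT, and shares 15.1% of its exon length with Lat2 on the other strand. Tipin, a partner of Timeless in fork protection, averaged 167 ± 15 CPM in CB2 KO and 185.1 ± 19.1 CPM in WT. Dscc1, part of the clamp loader of sister chromatid cohesion, was the one gene of the 8 with a positive value, at 24.999 ± 1.0 CPM in CB2 KO and 23.7 ± 3.5 CPM in WT (SD, n = 3 each throughout).

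Among the deoxynucleotide synthesis genes, both subunits of ribonucleotide reductase had lower means in CB2 KO, and thymidylate synthase did not. The summed level of the 3 genes was 1921, 1809 and 2046 CPM in CB2 KO, against 2248.5, 2339 and 2228 CPM in WT. These groups did not overlap, and the mean was 15.2% lower in CB2 KO. Rrm2, the small subunit whose level follows S phase, had 1264.5, 1168 and 1317 CPM in CB2 KO, against 1434, 1501 and 1486 CPM in WT. Its highest CB2 KO library was below its lowest WT library, with a log2 fold change of −0.24 (SE 0.06, unadjusted p = 0.00326). The edgeR adjusted p was 0.321 and the DESeq2 adjusted p 0.00164, and over the 16 alternatives the adjusted p ranged from 0.00164 to 0.627. Per kb of exon Rrm2 had the highest level of the members, at 451 CPM per kb in CB2 KO and 532 CPM per kb in WT. Without Rrm2, the summed level of the other 38 members was 6274, 6436 and 6498 CPM in CB2 KO and 6923, 7175 and 7395 CPM in WT, still without overlap.

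Rrm1, the large subunit that holds the catalytic site, had 425, 454 and 522 CPM in CB2 KO, against 609, 645 and 515 CPM in WT. CB2 KO replicate 3 was above WT replicate 3, so the groups overlapped, and the log2 fold change was −0.34 (SE 0.11, unadjusted p = 0.0158, edgeR adjusted p = 0.452). Tyms, which makes thymidylate from deoxyuridylate, had 232, 187 and 207 CPM in CB2 KO, against 206, 192 and 227 CPM in WT. Its means were 209 ± 22 CPM in CB2 KO and 208 ± 18 CPM in WT (SD, n = 3 each), and the log2 fold change of 0.00 (SE 0.11) took either sign among the alternatives.

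**Figure D4:**
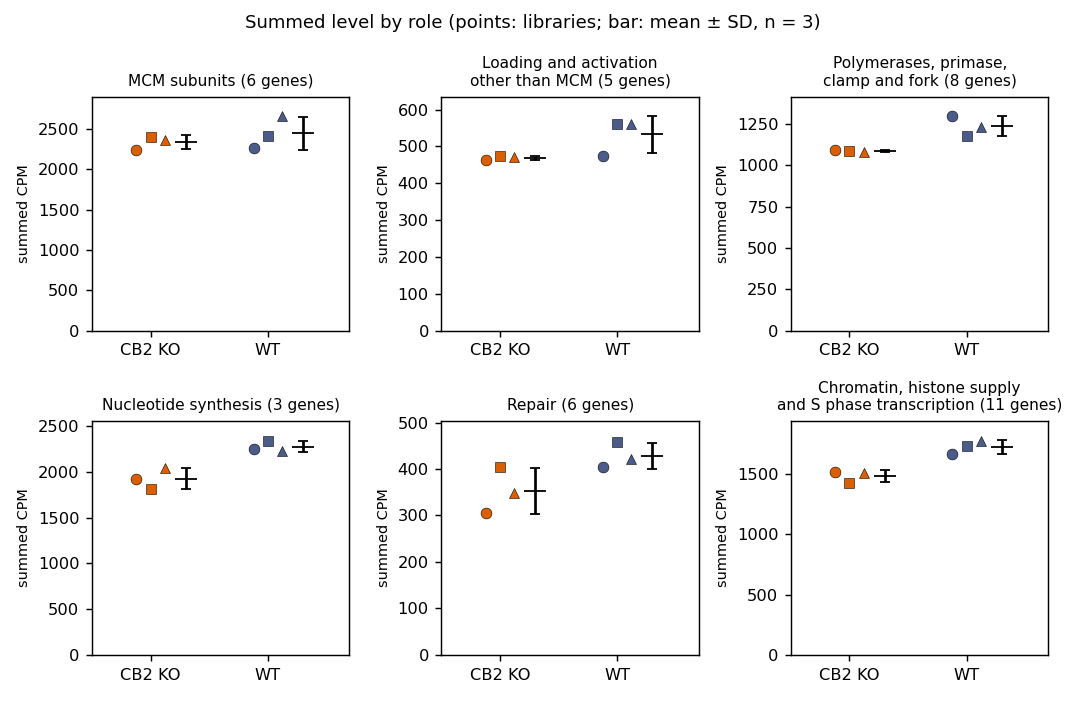
Summed CPM of the members in each role (y axis, from 0), CB2 KO left of WT; points are libraries with shapes for replicate numbers, and the bar is the mean with SD (n = 3). The MCM subunits overlap, and in the other 5 roles every CB2 KO library lies below every WT library, by a narrow margin for the other loading genes (474.6 and 475.2 CPM) and the repair genes (403.5 and 404.1 CPM).

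The 6 repair genes summed to 305, 404 and 348 CPM in CB2 KO, against 404, 458 and 421 CPM in WT. CB2 KO replicate 2 and WT replicate 1 were nearly equal, at 403.5 and 404.1 CPM, so the 17.6% lower mean in CB2 KO came close to overlap, and it was 12.1% without CB2 KO replicate 1. Blm, the helicase that unwinds recombination intermediates, had 53.9, 38.3 and 58.8 CPM in CB2 KO, against 69.1, 67.4 and 62.0 CPM in WT. Its groups did not overlap, with a log2 fold change of −0.41 (SE 0.19, edgeR adjusted p = 0.613). Usp1, the deubiquitinase of Pcna and Fancd2, had 139.6, 156 and 137 CPM in CB2 KO, against 139.5, 189 and 189 CPM in WT, where replicate 1 was level with CB2 KO (log2 fold change −0.25, SE 0.15). Rad51ap1, a factor of homologous recombination, had 49.4, 72.1 and 64.1 CPM in CB2 KO, against 73.2, 89.3 and 53.5 CPM in WT, with overlap and a log2 fold change of −0.23 (SE 0.23).

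Brip1 had the most negative log2 fold change of all members and also one of the widest spreads. This DNA helicase, a partner of Brca1, had 13.2, 69.5 and 36.6 CPM in CB2 KO, against 65.7, 60.3 and 75.005 CPM in WT. CB2 KO replicate 2 lay within the WT range and CB2 KO replicate 1 far below it, and the log2 fold change of −0.73 (SE 0.45, edgeR adjusted p = 0.704) was −0.29 without replicate 1 and −1.47 without replicate 2. Ung, the glycosylase that removes uracil from DNA, was the lowest member, with 1.94, 8.87 and 2.33 CPM in CB2 KO, against 1.91, 8.39 and 5.83 CPM in WT; its lowest library held 39 estimated counts. Its log2 fold change of −0.22 had an SE of 0.74, and its coefficient of variation between libraries was 89.0% in CB2 KO and 60.7% in WT. Exo1, an exonuclease of mismatch repair and end resection, averaged 51.5 ± 5.9 CPM in CB2 KO and 44.4 ± 9.8 CPM in WT (SD, n = 3 each), with a log2 fold change of 0.20 (SE 0.21).

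The chromatin, histone supply and S phase transcription genes summed to 1520.5, 1428 and 1509 CPM in CB2 KO, against 1664, 1732 and 1774 CPM in WT. The groups did not overlap, the mean was 13.8% lower in CB2 KO, and 7 of 11 log2 fold changes were negative, none past the threshold. Slbp, which binds the stem-loop of histone mRNAs and is needed to process and translate them, had the smallest p of all members. Its levels were 433, 382 and 385 CPM in CB2 KO, against 502, 515 and 495 CPM in WT. The groups stood well apart, with a log2 fold change of −0.33 (SE 0.07, unadjusted p = 0.00182). The edgeR adjusted p was 0.267 and the DESeq2 adjusted p 0.00038, with a range of 0.00038 to 0.595 over the alternatives.

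E2f8, an atypical E2F that represses E2F targets late in S phase, had 37.6, 32.5 and 48.3 CPM in CB2 KO, against 66.0, 60.1 and 67.1 CPM in WT. The mean was 38.7% lower in CB2 KO, without overlap, and the log2 fold change was −0.72 (SE 0.19, unadjusted p = 0.006, edgeR adjusted p = 0.364). DESeq2 gave an adjusted p of 0.0133, and the alternatives ranged from 0.0133 to 0.653. Of its exon length, 11.2% lies opposite Gm2788. Uhrf1, which reads hemimethylated DNA and brings in Dnmt1 behind the fork, had 297, 278 and 261 CPM in CB2 KO, against 326, 345 and 306 CPM in WT. Its groups did not overlap either, with a log2 fold change of −0.22 (SE 0.08, unadjusted p = 0.0303, edgeR adjusted p = 0.519). Atad2, a bromodomain ATPase of chromatin, had 156, 182 and 251 CPM in CB2 KO, against 211, 258 and 254 CPM in WT; the groups overlapped, with a log2 fold change of −0.30 (SE 0.18).

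The other 7 genes of the role overlapped between the genotypes. Chaf1b, a subunit of the histone chaperone CAF-1, averaged 68.2 ± 7.1 CPM in CB2 KO and 83.5 ± 15.2 CPM in WT. Casp8ap2, a factor of histone pre-mRNA processing, averaged 52.8 ± 22.5 CPM in CB2 KO and 81.5 ± 35.4 CPM in WT, a wide spread in both. Hells, a chromatin remodeller, averaged 127 ± 9 CPM in CB2 KO and 143 ± 31 CPM in WT. Its partner Cdca7 had the higher mean in CB2 KO, at 128 ± 31 CPM in CB2 KO and 106 ± 8 CPM in WT, a log2 fold change of 0.27 (SE 0.18) that was 0.06 without CB2 KO replicate 1. Nasp, a chaperone of histones H3 and H4 and H1, averaged 113 ± 19 CPM in CB2 KO and 99.7 ± 6.3 CPM in WT. Wdr76 averaged 16.1 ± 6.0 CPM in CB2 KO and 12.5 ± 1.3 CPM in WT, and Ubr7 66.3 ± 13.3 CPM in CB2 KO and 62.0 ± 23.2 CPM in WT (SD, n = 3 each throughout). The 10 members with positive log2 fold changes were Wdr76, Cdca7, Exo1, Nasp, Mcm4, Ubr7, Dscc1, Cdc45, Mcm7 and Tyms, all with overlapping groups.

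Spread within a genotype was similar on both sides. The median coefficient of variation of the members was 10.4% in CB2 KO and 10.8% in WT, and it was above 20% for 13 members in CB2 KO and for 8 in WT. CB2 KO replicate 1 was the lowest of the 6 libraries for 12 members, replicate 2 for 8 and replicate 3 for 7, against 9, 2 and 1 for WT replicates 1 to 3. WT replicate 1 was thus the WT library that was most often the lowest of the 6. Of 12 members with a pseudogene copy in the table (at least 90% identical over 400 aligned bases or more), adding the copies changed whether the groups overlapped for Pcna alone. The 21 members with neither such a copy nor an overlapping gene in the table summed to 3187, 3511 and 3561 CPM in CB2 KO, against 3811.5, 3882 and 4054.5 CPM in WT, 12.7% lower in CB2 KO and without overlap.

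Further replication and S phase genes, 142 in the table and 139 tested, were read from 6 lists. In edgeR 0 of the 139 passed the threshold. At an unadjusted p under 0.05, 10 were lower and 4 higher, against 4.27% lower and 4.33% higher among all tested genes. DESeq2 called 5 lower and 1 higher, against 1.39% lower and 1.19% higher among all tested genes. Of the 139, 93 had negative and 46 positive log2 fold changes. This is 66.9% negative, against 50.0% of all tested genes. Without overlap, 12 were lower and 7 higher. Over all tested genes the shares without overlap were 7.2% lower and 6.91% higher, so both counts without overlap are near the background. Of 47 genes of licensing, firing and the fork, 28 were negative (median −0.09). Rfc4, another clamp loader subunit, had 63.2, 81.2 and 62.0 CPM in CB2 KO, against 122, 107 and 91.9 CPM in WT, without overlap (log2 fold change −0.64, SE 0.17, edgeR adjusted p = 0.383). Orc1, the largest subunit of the origin recognition complex, had 15.9, 45.8 and 39.0 CPM in CB2 KO, against 68.7, 56.5 and 48.8 CPM in WT (log2 fold change −0.80, SE 0.34). Pold1, the catalytic subunit of polymerase delta, had 130.2, 162 and 201 CPM in CB2 KO, against 186, 219.98 and 232 CPM in WT, with overlap (log2 fold change −0.38, SE 0.17).

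Of 15 other deoxynucleotide genes, 10 were negative (median −0.09). Nme1, a nucleoside diphosphate kinase, had the smallest p and was higher, with 588, 512 and 549.98 CPM in CB2 KO, against 487, 481 and 443 CPM in WT (log2 fold change 0.22, SE 0.07, edgeR adjusted p = 0.469). Tk1, the S phase thymidine kinase, had 127, 94.0 and 133 CPM in CB2 KO, against 168, 152 and 146 CPM in WT, without overlap (log2 fold change −0.41, SE 0.15). Dck, the deoxycytidine kinase, had 132, 120.4 and 103 CPM in CB2 KO, against 153, 132 and 147 CPM in WT, where replicate 2 just met CB2 KO (log2 fold change −0.28, SE 0.13).

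Of 19 E2F, RB and S phase cyclin genes, 14 were negative (median −0.17). Cdkn1a, which encodes the cyclin-dependent kinase inhibitor p21, stood on the other side, with 614, 589 and 598 CPM in CB2 KO, against 465, 495 and 459 CPM in WT. It was higher in every CB2 KO library (log2 fold change 0.34, SE 0.06, unadjusted p = 0.000485). The edgeR adjusted p was 0.127 and the DESeq2 adjusted p 4.5e-09, the lowest of a range that reached 0.570 over the alternatives. Ccna2, the cyclin of S and G2 phase, had 240.5, 216 and 282 CPM in CB2 KO, against 319, 302 and 306 CPM in WT (log2 fold change −0.33, SE 0.11). Ccne2, a cyclin of the G1 to S transition, had 55.5, 73.8 and 88.3 CPM in CB2 KO, against 94.0, 92.3 and 123 CPM in WT (log2 fold change −0.51, SE 0.20). Neither cyclin overlapped between the genotypes.

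Histone supply and replication-coupled chromatin genes were negative in 10 of 11 (median −0.14). H2az1, a histone H2A variant, had 903, 811 and 883 CPM in CB2 KO, against 1137, 1023 and 1070.5 CPM in WT (log2 fold change −0.32, SE 0.06, edgeR adjusted p = 0.243). Lmnb1, which encodes lamin B1, had 187, 192 and 194 CPM in CB2 KO, against 252, 292 and 238 CPM in WT (log2 fold change −0.45, SE 0.10, edgeR adjusted p = 0.290). Asf1b, a histone H3 and H4 chaperone, had 201, 226 and 248 CPM in CB2 KO, against 326, 293 and 296 CPM in WT (log2 fold change −0.44, SE 0.10, edgeR adjusted p = 0.290). These 3 had the smallest p of the 11, so their separation partly follows from how they were picked. They were the only genes of the 11 without overlap, where 7.2% of all tested genes were lower without overlap. DESeq2 called all 3 lower, against 1.39% of all tested genes.

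Of the 17 tested replication-dependent histone genes, 10 were negative and 7 positive (median −0.22), and the summed level overlapped between the genotypes. Without overlap, 1 of the 17 was lower in CB2 KO and 3 were higher, against 7.2% lower and 6.91% higher among all tested genes. Their mRNAs end in a stem-loop in place of a poly(A) tail, and the labels do not say how RNA was selected for the libraries, so these low levels are uncertain. H1f5 had 13.9, 18.4 and 16.7 CPM in CB2 KO, against 24.8, 35.5 and 26.0 CPM in WT (log2 fold change −0.82, SE 0.27). H2bc4 had 29.1, 22.3 and 20.6 CPM in CB2 KO, against 16.3, 11.8 and 13.4 CPM in WT (log2 fold change 0.80, SE 0.28), and so differed in the other direction. H1f2 averaged 27.2 ± 10.98 CPM in CB2 KO and 15.8 ± 1.4 CPM in WT, and H2ac18 averaged 18.8 ± 3.7 CPM in CB2 KO and 13.3 ± 1.7 CPM in WT (SD, n = 3 each). These 2 were named after their values were seen. H3c3 had 5.02, 2.50 and 3.20 CPM in CB2 KO, against 12.6, 3.80 and 10.1 CPM in WT, with overlap.

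Of 30 other repair genes active in S phase, 21 were negative (median −0.11). Brca1, a tumour suppressor of double-strand break repair, was higher in every CB2 KO library, with 62.1, 82.8 and 56.1 CPM in CB2 KO, against 44.4, 45.8 and 51.3 CPM in WT (log2 fold change 0.52, SE 0.20, edgeR adjusted p = 0.534). Mbd4, a glycosylase of mismatches at methylated sites, had 28.3, 18.8 and 30.4 CPM in CB2 KO, against 44.7, 35.4 and 33.2 CPM in WT, without overlap (log2 fold change −0.58, SE 0.25).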

How the data were processed

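Sorted lung ILC2s were profiled by RNA-seq in 3 CB2 KO and 3 WT libraries, grouped by sample title. The authors deposited an estimated count per gene, made by expectation maximization in Partek according to the headers, which shares a multi-mapping read between genes. A normalized signal, also deposited by the authors, served as an alternative (log2 of the deposited value). Per the submitters' processing notes, CASAVA 1.8.2, STAR (version listed as 3.5.3), Partek and mm10 were used; no strand setting is given in the sources used here.

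Estimated counts were rounded and tested with edgeR 4.0.16 in R 4.3.3 (TMM, filterByExpr, robust glmQLFit, legacy=FALSE, glmQLFTest, Benjamini-Hochberg adjustment over 14084 genes, threshold 0.05). The filter removed 4394 genes. The SE was derived from the fold change and its F statistic. Alternatives used DESeq2 1.42.0, limma 3.58.1, other scalings and filters, a replicate block and leaving out each library. On simulated data the edgeR workflow called 13 of 100 genes changed 2-fold, 48 of 100 changed 4-fold and 7 of 13884 unchanged genes. The changed genes were drawn at random from all 14084 tested genes, at any level and spread. These rates are therefore not those of the members, for which no rate was measured. The largest fold among the members was 1.65, for Brip1. The 0 calls among the members do not show that differences are absent. At these depths, 3 counts are 0.140 to 0.174 CPM, covering counting error only. No 2 libraries agreed within sampling noise (lowest chi-square per degree of freedom 32.9).

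Exon lengths, overlaps and pseudogene copies came from GENCODE M21 (blastn 2.17.0), and promoters from RefSeq (GRCm38.p6). Library values are given for the MCM, loading and nucleotide genes. In other roles they are given for the 2 highest genes and the 4 with the smallest p. In each further list they are given for the 3 genes with the smallest unadjusted p. A gene that this rule selects is not reported here. Members and lists were chosen with earlier results of these data known.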

Additional observations from a re-analysis of the deposited data

How the results depend on the processing

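Of 623 recomputed member values, 599 kept their direction and side of the threshold, 21 turned sign and 3 gained a call; 29 of 39 members never turned sign under the 16 alternatives. The genes called over the whole table numbered 15, against 35 with a mean count of at least 100, 363 with DESeq2, 23 with the authors' signal in limma, 3 with the replicate block and 3 to 8 when 1 library was left out. Members called were 0 in every alternative but DESeq2, which called 3. The members' median log2 fold change of −0.19 ranged from −0.20 to −0.14 when 1 library was left out, and 26 to 33 members were then negative. Library size alone turned Mcm6 (0.00195) and Cdc6 (0.000907), and the authors' signal turned Tyms (−0.0146). Left-out libraries gave ranges across 0 for Mcm3 (−0.157 to 0.0672), Mcm6 (−0.0915 to 0.0821), Cdc6 (−0.125 to 0.0929), Cdc45 (−0.211 to 0.246), Gins2 (−0.0928 to 0.0393), Pola1 (−0.341 to 0.0413), Dscc1 (−0.0474 to 0.145), Tyms (−0.0784 to 0.0793), Ung (−1.32 to 0.305) and Ubr7 (−0.146 to 0.396). The cause was not tested. Same-numbered CB2 KO and WT libraries had correlated deviations of 0.07, 0.03 and 0.02, none over 0.1, so the numbers were not taken to pair the samples, and the replicate block called 0 members. The lowest count of any member in a library was 39, for Ung.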
